A study of Mus musculus with 4 samples.

Results

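The 46 genes described here make ribosomes or transcribe ribosomal RNA: nucleolar chaperones, the proteins of small nucleolar ribonucleoprotein particles (snoRNPs), assembly factors of the small and the large ribosomal subunit, and RNA polymerase I with its initiation factors. They were chosen by gene name as a pathway, and all 46 were matched by gene ID among the 50600 genes counted. Their RNA was measured in 4 libraries of regulatory T cells, the T cell class that holds immune responses in check, taken as primary cells from mice of strain C57BL/6NJ. The libraries form 1 group, biological replicates 1 to 4. There is no control arm, so each result below is a level, a difference between genes within a library, or a spread between libraries.

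All 4 libraries carry the same donor identifier, and sex and age are not recorded. The labels link a protocol in which CD4+ T cells are differentiated in culture, the words activated and 24h stand in the names of the output files, per the file headers, and no other treatment or allele is named. The assay is called total RNA-seq while the linked library protocol is for polyA+ RNA, which bears on RNAs without a polyA tail. Nothing in the labels says that the replicates were separate animals or cultures, so each p-value below measures only the spread between these 4 libraries, which may be technical in part. The Xist levels given below differ too widely for all 4 to be repeats of 1 RNA sample.

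Ribosomes are built in the nucleolus. RNA polymerase I transcribes a long precursor rRNA, small nucleolar RNAs guide its chemical modification (box C/D particles add methyl groups, box H/ACA particles make pseudouridine), and the small-subunit and large-subunit factors then fold, cut and export each subunit. Resting T cells make few ribosomes, and activation by antigen together with the transcription factor Myc raises the output of this pathway.

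The libraries held 38590127, 44357436, 48312918 and 93035969 counted fragments in replicates 1 to 4, and no pair of them was a duplicate. Of 9 T cell and regulatory T cell markers, 8 stood at 10 TPM or more, with Foxp3 at 109 ± 14.5 TPM (SD, n = 4) and Ikzf2 the exception at 4.32 ± 0.788 TPM. TPM is the count divided by the length of all exons of the gene and scaled to the same total in every library. The summed TPM of the 9 markers was between 4060.4 and 4746, against 17.4 to 26 for 2 CD8 genes, 2.81 to 4.55 for 4 B cell genes, 0.219 to 0.614 for 3 NK genes and 0.0586 to 0.349 for 6 myeloid genes, of which Lyz2, S100a8 and S100a9 had no fragment. Replicate 1 stood apart: Gm42418, a feature related to 18S rRNA, had 35490.5 TPM there and 3197, 1324 and 1606 TPM in replicates 2 to 4. The protein-coding share of TPM was 88.2% for replicate 1, against 95.6%, 96.6% and 96.6% for replicates 2 to 4. Another such feature, Gm26917, had 1389, 523, 221 and 287 TPM. Xist, which silences an X chromosome, was at 100.4 TPM in replicate 1 and 88.7 TPM in replicate 2, against 0.716 TPM in replicate 3 and 0.603 TPM in replicate 4, although the labels give 1 donor.

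The pathway was expressed as a whole. All 46 genes reached a mean of 10 TPM, which 73.8% of the 10664 expressed protein-coding genes did (those at 1 TPM or more in at least 1 library). At 100 TPM or more stood 39 of the 46, or 84.8%, against 19.3% of expressed protein-coding genes. The median of the 46 genes was 216, 225, 223 and 235 TPM in replicates 1 to 4, a mean of 225 ± 7.85 TPM (SD, n = 4). The median of the expressed protein-coding genes was 27.8, 29.9, 30.9 and 29.7 TPM in the same libraries. Every library showed the same order, and without replicate 1 the median of the 46 genes was 228 TPM. In bulk RNA such as this, more cells that use a gene and more of its RNA per cell cannot be told apart.

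By share of fragments, which uses no gene length, the 46 genes held 1.70% of replicate 1 (95% exact binomial interval 1.699 to 1.707), 1.80% of replicate 2 (1.795 to 1.803), 1.77% of replicate 3 (1.764 to 1.772) and 1.80% of replicate 4 (1.800 to 1.805). Replicate 1 was the lowest, also among protein-coding fragments alone, where the shares were 1.76%, 1.82%, 1.78% and 1.82%. The part of the rRNA-related features in this was not tested. The 76 cytosolic ribosomal protein genes, whose products the pathway assembles into subunits, had a median of 1024 ± 51.9 TPM and together 11.4% of TPM, whereas the 46 genes summed to 1.49%. The 78 mitochondrial ribosomal protein genes had a median of 87.0 ± 5.83 TPM. Myc, which binds promoters of many of these genes, had 487, 486, 498 and 515 TPM.

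**Figure D1:**
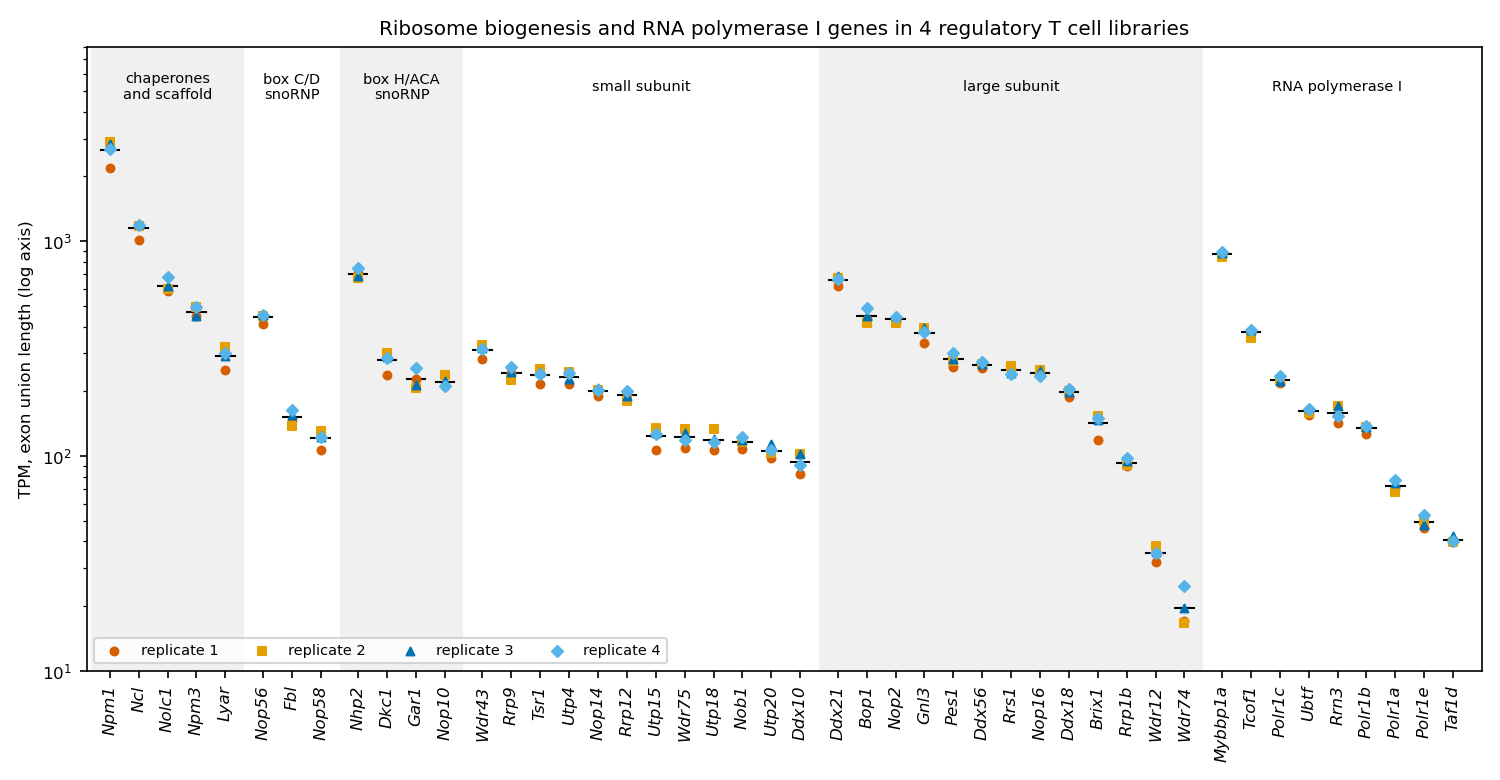
TPM (log axis) of each of the 46 genes in the 4 libraries, in 6 role groups; each point is 1 library and each bar the mean of 4. Npm1 (2645 ± 314 TPM) and Ncl (1145 ± 86.6 TPM) stand highest and Wdr74 (19.5 ± 3.71 TPM) lowest. The Wdr74 level is a lower limit, because most of its exon length is shared with another gene ID and was not counted. The libraries lie close together at nearly every gene.

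The promoter windows of 40 of the 46 genes were read from RefSeq (GRCm38.p6), from 250 bases before to 50 bases after the start of the gene. Bop1, Fbl, Npm1, Rrp12, Rrs1 and Tcof1 were not matched. The E-box CACGTG, the letters that Myc and its partner Max bind and which read the same on both strands, stood in 9 of the 40 windows (22.5%), against 12.3% of 8496 expressed protein-coding genes and 8.09% of all 27025 windows. The 9 genes were Mybbp1a, Nop2, Pes1, Rrn3, Tsr1, Utp18, Utp20, Utp4 and Wdr43. In 3 of them a match lay upstream of the start, and 60 upstream bases of each are printed with the CACGTG in capitals, on the strand of the gene. For Nop2, a methyltransferase of large-subunit rRNA, the stretch is chr6:125131796-125131855 on the plus strand and the match begins 60 bases before the start. For Utp18, a small-subunit factor, it is chr11:93885767-93885826 on the minus strand, with the match 20 bases before the start, and for Rrn3, the factor that makes RNA polymerase I competent to initiate, it is chr16:13780624-13780683 on the plus strand, with the match 48 bases before.
Nop2: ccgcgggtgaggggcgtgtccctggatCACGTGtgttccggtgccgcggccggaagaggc
Utp18: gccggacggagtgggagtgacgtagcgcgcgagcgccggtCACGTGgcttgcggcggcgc
Rrn3: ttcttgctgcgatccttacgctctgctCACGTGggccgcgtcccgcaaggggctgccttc

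In the other 6 genes the only match lay in the first 50 bases after the start. Rrn3 was the one window with a further match, 215 bases before its start. Counting either CACGTG or CACGCG, searched on both strands and with a window counted once, 22 of the 40 windows (55%) had a match, against 30.5% of expressed protein-coding genes. A match describes these letters only, and binding was not measured.

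The 5 nucleolar chaperones and scaffolds had a median of 619.7 ± 40.7 TPM, all above 100 TPM. By exon length this was the highest median of the 6 role groups, but with the APPRIS transcript, the isoform annotated as the main one, the middle gene of the 3 box C/D proteins (Nop58, 528 TPM) stood above that of the chaperones (Npm3, 438 TPM). Npm1 (nucleophosmin, a histone and ribosome chaperone; ENSMUSG00000057113.13, mm10 chromosome 11, 33152287 to 33163206, minus strand) stood at 2193, 2876, 2836 and 2676 TPM over the 4 libraries, the highest of the 46 genes and above 99.8% of expressed protein-coding genes. Replicate 1 was its lowest library and the other 3 lay close together. Npm3, a smaller protein of the same family (chromosome 19, 45747734 to 45749591, minus strand), had 446, 492, 447 and 493 TPM. The log2 difference of Npm1 over Npm3, taken within each library on log2(TPM + 1), was 2.29, 2.55, 2.66 and 2.44, a mean of 2.49 ± 0.16 (SD, n = 4). Npm1 was higher in 4 of 4 libraries (exact two-sided sign-flip permutation test p = 0.13, or 2 of 16 sign patterns, and 0.13 after Benjamini-Hochberg adjustment over 11 pairs, the smallest value 4 libraries allow).

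Ncl, nucleolin, which binds precursor rRNA (ENSMUSG00000026234.12, chromosome 1, 86344719 to 86359400, minus strand), had 1145 ± 86.6 TPM. Nolc1, a chaperone that carries snoRNPs between nucleolus and Cajal bodies, had 619.7 ± 40.7 TPM. Lyar, a nucleolar zinc finger protein linked to cell growth, was the lowest of the group (ENSMUSG00000067367.9, chromosome 5, 38220470 to 38234306, plus strand) with 251, 321, 291 and 301 TPM, again lowest in replicate 1.

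The 3 core proteins of box C/D particles had unequal levels. Nop56, the highest (ENSMUSG00000027405.16, chromosome 2, 130274430 to 130279313, plus strand), had 409, 448, 451 and 454 TPM. Fbl, fibrillarin, the methyltransferase (chromosome 7, 28169710 to 28179269, plus strand), had 146, 138, 155 and 163 TPM, and Nop58, the partner of Nop56 in the particle (ENSMUSG00000026020.9, chromosome 1, 59684971 to 59719044, plus strand), had 106, 131, 123 and 122 TPM. No library of Nop56 overlapped with either partner on this scale. The log2 difference of Fbl over Nop56 was -1.54 ± 0.10 and that of Nop56 over Nop58 1.86 ± 0.07 (SD, n = 4 each), the same sign in 4 of 4 libraries for both (exact sign-flip permutation p = 0.13, adjusted 0.13).

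These sizes depended on the length by which fragments were divided. The exons of Nop58 span 10758 bp in the deposited table, its longest protein-coding transcript 9507 bp, and its APPRIS principal transcript 1713 bp. With that transcript Nop58 had 528 ± 39.8 TPM, above Fbl at 369 TPM, and the log2 difference of Nop56 over Nop58 was 0.35 ± 0.07, while with the longest transcript it was 2.81 ± 0.07. Fbl had 385 TPM with its longest protein-coding transcript (1197 bp, against 4209 bp of exons), and its log2 difference to Nop56 was then -0.86 ± 0.10. The direction held for both pairs under all 3 lengths, and the size of the gap between Nop56 and Nop58 did not.

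Several of the 46 genes also carry snoRNA genes within their span, and Nop56, Nop58 and Fbl bind those of the box C/D class. On the strand of 8 of these hosts lay 29 annotated snoRNA genes, and 10 of them had a fragment in every library. Gnl3 (nucleostemin) held the best covered: Snord69, a box C/D snoRNA at mm10 chr14:31014287-31014366, minus strand, had 78, 94, 86 and 100 fragments in replicates 1 to 4. Snord19 in the same host had 19, 21, 26 and 70. Wdr43 held Snord53 with 22, 22, 37 and 67 fragments and Gm22858 (chr17:71641584-71641659, plus strand) with 23, 12, 15 and 21. Snord11 in Nop58 (chr1:59704790-59704873, plus strand) had 1, 4, 2 and 7. All of these counts are small beside those of the hosts, and fragments of a snoRNA and of unspliced host RNA cannot be told apart in them.

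The 29 genes fell into 2 sets by where they lie. The 15 that overlap the annotated exons of their host, in Ncl, Nop56, Nop58 and Taf1d, had 0 fragments in every library. The 14 outside those exons had 898 fragments in all, and Snord92 in Wdr43 was the only one of them at 0 in every library. Per the file headers, fragments overlapping more than 1 gene were not asked for, so a 0 on a host exon does not measure the snoRNA. For Snord92, off the host exons, 0 fragments seen allow as many as 3. That is 0.0777 CPM (fragments as a share of the library, on a fixed scale) in replicate 1 and 0.0322 CPM in replicate 4. No such limit holds for the 15 on host exons. The sequences of 3 snoRNAs that were counted and of 2 that lie on host exons, Gm24148 in Ncl (chr1:86352008-86352087, minus strand) and Gm24299 in Taf1d (chr9:15314074-15314144, plus strand), show the same layout, a C box (TGATGA) near the 5′ end and a D box (CTGA) near the 3′ end, both in capitals. They are from GENCODE mouse release 21 on mm10. Both boxes were found in 11 of the 29. Only these exact letters were searched for, so 11 is not the number of box C/D genes. Snord53, for example, had a match to the C box but not to the D box.
Snord69: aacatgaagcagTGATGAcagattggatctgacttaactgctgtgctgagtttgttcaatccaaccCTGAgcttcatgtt
Gm22858: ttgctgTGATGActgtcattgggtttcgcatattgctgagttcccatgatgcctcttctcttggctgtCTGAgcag
Snord11: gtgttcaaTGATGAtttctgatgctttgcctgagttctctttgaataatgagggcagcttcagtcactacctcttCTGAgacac
Gm24148: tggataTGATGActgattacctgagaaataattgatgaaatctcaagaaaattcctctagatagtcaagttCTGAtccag
Gm24299: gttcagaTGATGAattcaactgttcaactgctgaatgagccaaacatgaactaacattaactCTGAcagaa

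The 4 proteins of box H/ACA particles had a median of 258 ± 17.8 TPM. Nhp2, an RNA-binding subunit and the highest (ENSMUSG00000001056.3, chromosome 11, 51619735 to 51623714, plus strand), had 710.1, 670.0, 687 and 745 TPM. Dkc1, dyskerin, the pseudouridine synthase and the only one of the 46 genes on the X chromosome (75095854 to 75109777, plus strand), had 239, 302, 289 and 287 TPM. Its lowest and its highest library were replicates 1 and 2, the 2 with Xist.

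Gar1, needed for catalysis (chromosome 3, 129824912 to 129831396, minus strand), had 228, 208, 214 and 257 TPM. Nop10, a small protein that bridges Dkc1 and Nhp2 and the lowest of the 4 (ENSMUSG00000027133.3, chromosome 2, 112261926 to 112263269, plus strand), had 211, 239, 222 and 210.4 TPM. Gar1 and Nop10 overlapped between libraries, and both lay below Dkc1 within every library. The log2 difference of Dkc1 over Nhp2 was -1.33 ± 0.18, over Nop10 0.34 ± 0.11 and over Gar1 0.30 ± 0.22 (SD, n = 4 each). For Gar1 the difference was only 0.07 in replicate 1 and 0.16 in replicate 4, against 0.54 and 0.43 in replicates 2 and 3. All 3 pairs kept their sign in 4 of 4 libraries (exact sign-flip permutation p = 0.13, adjusted 0.13). With the longest transcript the difference of Dkc1 over Nop10 was 0.89 ± 0.11.

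The 12 small-subunit factors had a median of 157 ± 6.15 TPM, and 11 of them stood at 100 TPM or more. Wdr43, a subunit of the t-UTP complex that binds the nascent precursor rRNA, was the highest by exon length (ENSMUSG00000041057.9, chromosome 17, 71616215 to 71659031, plus strand) with 282, 328, 318 and 315 TPM. Utp4, of the same complex (chromosome 8, 106893636 to 106923088, plus strand), had 216, 246, 228 and 242 TPM, and Utp15 (chromosome 13, 98246845 to 98262992, minus strand) had 106, 135, 128 and 127 TPM. Wdr75, a further t-UTP subunit, had 122 ± 10.7 TPM. The order of Wdr43 and Utp4 turned with the length used: with the longest transcript Wdr43 had 226 TPM and Utp4 262 TPM, and with the APPRIS transcript 217 and 251 TPM. Rrp9 was then the highest small-subunit factor, at 326 TPM with the longest and 313 TPM with the APPRIS transcript. The log2 difference of Wdr43 over Utp15 was 1.32 ± 0.05 and of Utp4 over Utp15 0.91 ± 0.08 (SD, n = 4 each; 4 of 4 libraries, exact sign-flip permutation p = 0.13, adjusted 0.13), and the difference of Utp4 over Utp15 became 1.55 ± 0.08 with the longest transcript.

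Among the other processome proteins, Rrp9, which binds U3 snoRNA, had 243 ± 13.7 TPM. Nop14 had 200.1 ± 7.61 TPM, Utp18 119 ± 11.7 TPM and Utp20 105 ± 6.35 TPM. The factors of late maturation and export followed the same range, with Tsr1 at 239 ± 16.3 TPM, Rrp12, needed for export, at 191 ± 8.07 TPM, and Nob1, the endonuclease that makes the 3′ end of 18S rRNA, at 116 ± 5.74 TPM. Ddx10, an RNA helicase, was the lowest (ENSMUSG00000053289.8, chromosome 9, 53098635 to 53248053, minus strand) with 82.1, 102, 102 and 90.9 TPM, so it reached 100 TPM in 2 of 4 libraries.

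The 13 large-subunit factors had a median of 251 ± 9.52 TPM, and ran from Ddx21 at 660.4 ± 29.3 TPM to Wdr74 at 19.5 ± 3.71 TPM. The Wdr74 level is a lower limit, as described below. Ddx21, an RNA helicase of the nucleolus (ENSMUSG00000020075.8, chromosome 10, 62580251 to 62602281, minus strand), had 618, 672, 686 and 665 TPM. Pes1, Bop1 and Wdr12 form the PeBoW complex, which is needed for cutting within the internal spacer ahead of the large-subunit rRNA. Bop1 (chromosome 15, 76452996 to 76477269, minus strand) had 432, 416, 448 and 488 TPM. Pes1 (chromosome 11, 3963975 to 3980004, plus strand) had 260.1, 277, 283 and 301 TPM, and Wdr12 (chromosome 1, 60069785 to 60098645, minus strand) had 31.9, 37.9, 35.8 and 35.5 TPM. The 3 subunits did not overlap in any library. The log2 difference of Pes1 over Bop1 was -0.67 ± 0.06 and of Pes1 over Wdr12 2.96 ± 0.09 (SD, n = 4 each; 4 of 4 libraries, exact sign-flip permutation p = 0.13, adjusted 0.13). With the longest transcript these differences were -0.61 ± 0.06 and 2.75 ± 0.09. The lengths themselves changed little, so this was no check on the size of the gaps. Wdr12 has 11955 bp of exons and 10012 bp in both its longest and its APPRIS transcript, so no short transcript was tried for it.

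Of the remaining large-subunit factors, Nop2 had 432 ± 15.5 TPM and Gnl3, a GTPase, 375 ± 28.3 TPM. Rrs1, which helps to bring the 5S particle into the subunit, had 250.0 ± 10.2 TPM, Brix1 142 ± 16.2 TPM and Nop16 244 ± 6.76 TPM. The helicases Ddx56 and Ddx18 had 266 ± 6.79 and 198 ± 7.29 TPM. Rrp1b, also known as a chromatin-associated protein, had 93.1 ± 3.63 TPM.

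Wdr74, also a large-subunit factor (ENSMUSG00000042729.10, chromosome 19, 8735827 to 8740624, plus strand), had 17.1, 16.7, 19.5 and 24.8 TPM, lowest of the 46 genes and highest in replicate 4. Its level is a lower limit: 1103 of its 1216 bp of exons (90.7%) are shared on the same strand with another gene ID that has no name in the annotation used, and fragments on both were not counted. That ID held 10, 1, 1 and 17 fragments. The place of Wdr74 as the lowest gene is therefore uncertain. Wdr74 also had the fewest fragments of the 46 genes, at least 252 in each library, where the next, Polr1e, had at least 2169. Taf1d shares 10.1% of its exon length, Nop56 8.0%, Ncl 2.12% and Nop58 0.781%, with snoRNA, microRNA and other annotated genes, and no other member shared exon length on its strand.

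The 9 genes of RNA polymerase I transcription had a median of 155 ± 10.3 TPM. Mybbp1a, a nucleolar protein that acts in both polymerase I transcription and rRNA processing, was the highest (ENSMUSG00000040463.16, chromosome 11, 72441355 to 72451768, plus strand) with 851, 839, 882 and 891 TPM. Of the core enzyme, Polr1a, the largest subunit (chromosome 6, 71909053 to 71984935, plus strand), had 71.2, 67.9, 74.6 and 77.4 TPM, and Polr1b, the second largest (chromosome 2, 129100995 to 129126594, plus strand), had 127, 137, 137 and 138 TPM. The groups of values did not overlap, with a log2 difference of Polr1a over Polr1b of -0.88 ± 0.08 (SD, n = 4; 4 of 4 libraries, exact sign-flip permutation p = 0.13, adjusted 0.13) and of -1.05 ± 0.08 with the longest transcript.

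Polr1c, which polymerase III also uses, had 226 ± 6.83 TPM, and Polr1e, a subunit that helps to recruit Rrn3-bound polymerase, 49.1 ± 2.97 TPM. Of the factors that bring the enzyme to rDNA, Tcof1 (treacle) had 377 ± 15.2 TPM, Ubtf, which coats active rDNA, 161 ± 5.61 TPM and Rrn3 159 ± 14.2 TPM. Taf1d, a subunit of the SL1 promoter complex (ENSMUSG00000031939.16, chromosome 9, 15306214 to 15316991, plus strand), was the lowest of the group with 39.7, 39.7, 42.3 and 40.3 TPM. This place rested on its exon length of 8949 bp. With its longest protein-coding transcript of 1148 bp Taf1d had 229.6 ± 6.38 TPM, 5.67 times as much, and Polr1e, at 46.6 TPM, was the lowest of the group.

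**Figure D2:**
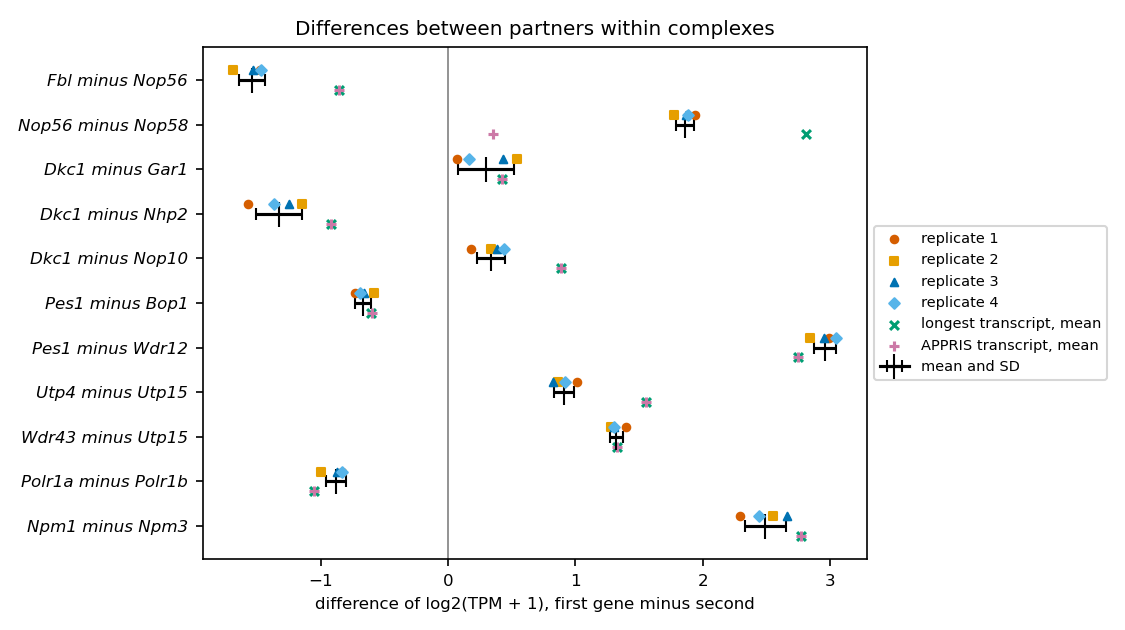
Difference of log2(TPM + 1) between 2 partners, first gene minus second, for 11 pairs; coloured points are the 4 libraries, black bars the mean and SD, and the cross and plus below them the mean with other gene lengths. No pair crosses 0 in any library, and Nop56 minus Nop58 moves most with the length used, between 0.35 and 2.81.

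Either transcript length moved the levels of 40 of the 46 genes by more than their SD over the libraries. Part of each move is a rescaling of all genes, because TPM has a fixed total. Nolc1, with 3634 bp under every length, fell to 0.727 of its level with the longest and to 0.697 with the APPRIS transcript. With the longest protein-coding transcript 4 of the 46 genes were more than 1.5-fold higher than by exon length: Taf1d, Fbl, Nop56 (699.5 TPM) and Nob1 (178 TPM). With the APPRIS transcript these were Taf1d (220.1 TPM), Nop58, Fbl (369 TPM) and Nop56 (671 TPM). None was more than 1.5-fold lower under either length, and the median fold was 0.855 with the longest and 0.849 with the APPRIS transcript. These folds include the rescaling, so a fold below 1 need not mean a longer gene length. The 5 highest genes were Npm1, Ncl, Mybbp1a, Nop56 and Nhp2 under both transcript lengths.

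**Figure D3:**
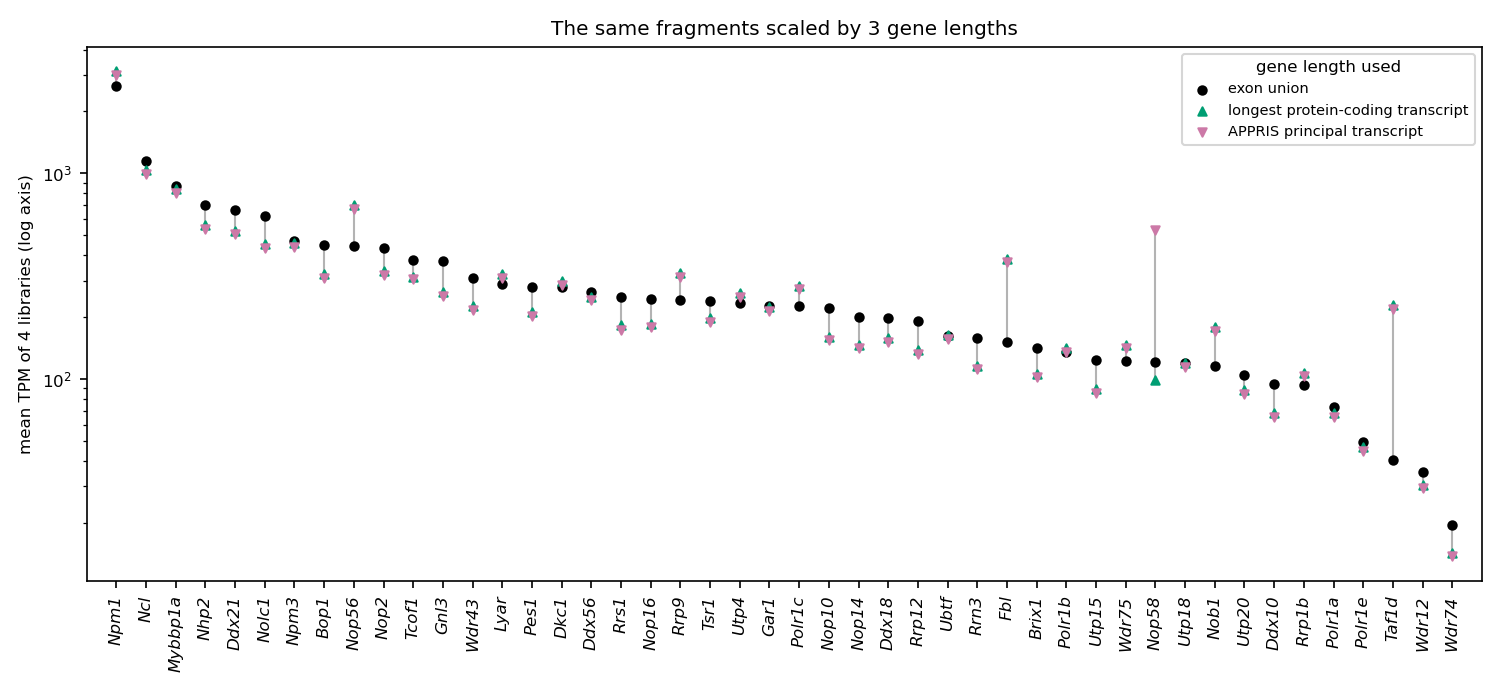
Mean TPM of 4 libraries (log axis) for each of the 46 genes when the same fragments are divided by the length of all exons, of the longest protein-coding transcript or of the APPRIS principal transcript. Taf1d, Fbl and Nop56 stand higher with both transcript lengths and Nop58 with the APPRIS transcript (528 TPM).

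Copies that were counted held few fragments. With a copy counted as a pseudogene of at least 95% identity over at least 200 bp, 9 of the 46 genes had one: Ddx18, Ddx21, Fbl, Nop56, Npm1, Npm3, Pes1, Taf1d and Wdr12. Of the 17 copies, 14 are among the genes counted, and 1 copy of Ddx18 and 2 of Nop56 were not analysed here. Fragments counted on the 14 copies were between 0.00174% (Ddx21) and 2.25% (Fbl) of the total on the gene and its copies. For Npm1, with 4 copies, the share was 0.511%. Reads that fit a gene and its copy equally well were not asked for in the count, so the levels of these 9 genes are uncertain. For Ddx18 the copy Gm16433 matches at 99.3% over 1984 bp, and its share was 1.24%.

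The 46 genes varied little between libraries. Over the 46 genes the coefficient of variation of TPM had a median of 6.04%, against 8.24% over expressed protein-coding genes. The latter reach down to a mean of 0.282 TPM and were not matched for abundance. Similar lists had similar medians, so the low spread was not particular to the 46 genes. These were 6.48% for cytosolic and 6.56% for mitochondrial ribosomal protein genes, and 6.13% for the 97 further ribosome biogenesis genes described below. In edgeR's intercept-only quasi-likelihood fit, which asks whether a gene varies more than genes of like abundance, 0 of the 46 genes passed a Benjamini-Hochberg adjusted p of 0.05, where 58 of 12396 genes (0.468%) did. At an unadjusted p under 0.05 stood 2 of the 46 and 661 of the 12396. In that edgeR fit Gar1 had an adjusted p = 0.725 (0.0126 before adjustment) and Npm1 an adjusted p = 0.907 (0.0373 before adjustment), and these were the 2. DESeq2 flagged 69 genes for a dispersion above its trend and none of the 46. A p that misses the threshold does not show that the libraries are equal.

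Within each library the shifts of the 46 genes varied with base composition. After edgeR's TMM scaling, each library was compared with the mean of the other 3 on log2 CPM, and set against the GC content of the longest protein-coding transcript. The 4 shifts of a gene sum to 0 by this construction, so a slope with GC in some libraries forces the opposite slope in others, and the opposite signs are not separate results. In replicate 1, Npm1 (42.4% GC) and Brix1 (41.6% GC) were each at -0.23, the lowest of the 46, while Rrs1 (54.2% GC) was highest at 0.15. In replicate 2 Npm1 was at 0.14, Brix1 at 0.13 and Rrs1 at 0.07, so Rrs1 did not take the opposite sign there.

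Of the 23 genes with the lower GC (40.4% to 50.3%), 19 were below the other libraries in replicate 1 (median -0.10) and 18 above in replicate 2 (median 0.12). Of the 23 with the higher GC (50.5% to 59.8%), 19 were above in replicate 1 (median 0.06), 17 below in replicate 2 (median -0.09), all 23 below in replicate 3 (median -0.05) and 21 above in replicate 4 (median 0.07). Across the 46 genes Pearson's r between shift and GC was 0.74, -0.77, -0.52 and 0.47 in replicates 1 to 4, and Spearman's rho 0.74, -0.79, -0.53 and 0.54. The genes are not independent replicates, and within a library they share its depth and its preparation.

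The same signs were seen in other sets of genes. Over the 97 further ribosome biogenesis genes described below, Pearson's r was 0.70, -0.65, -0.43 and 0.42, so the slopes were not particular to the 46. Over 8703 genes within the abundance range of the 46 it was 0.48, -0.39, -0.35 and 0.30. Over all 11042 tested genes with a GC value it was 0.28, -0.25, -0.19 and 0.14. Both of these wider sets include the 46. The median span over the 4 libraries was 0.17 log2 units in the 46 genes and 0.17 in the 97. It was 0.20 in the 8703 genes and 0.24 in all 11042. The 8703 genes lie within the same range of abundance but were not matched to the 46 inside it. Wdr74 (55% GC) had the widest span of the 46. Its 0.46 in replicate 4 and -0.31 in replicate 2 had the signs of the trend, while its -0.11 in replicate 1 went against it. The part of library preparation in these shifts was not tested.

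**Figure D4:**
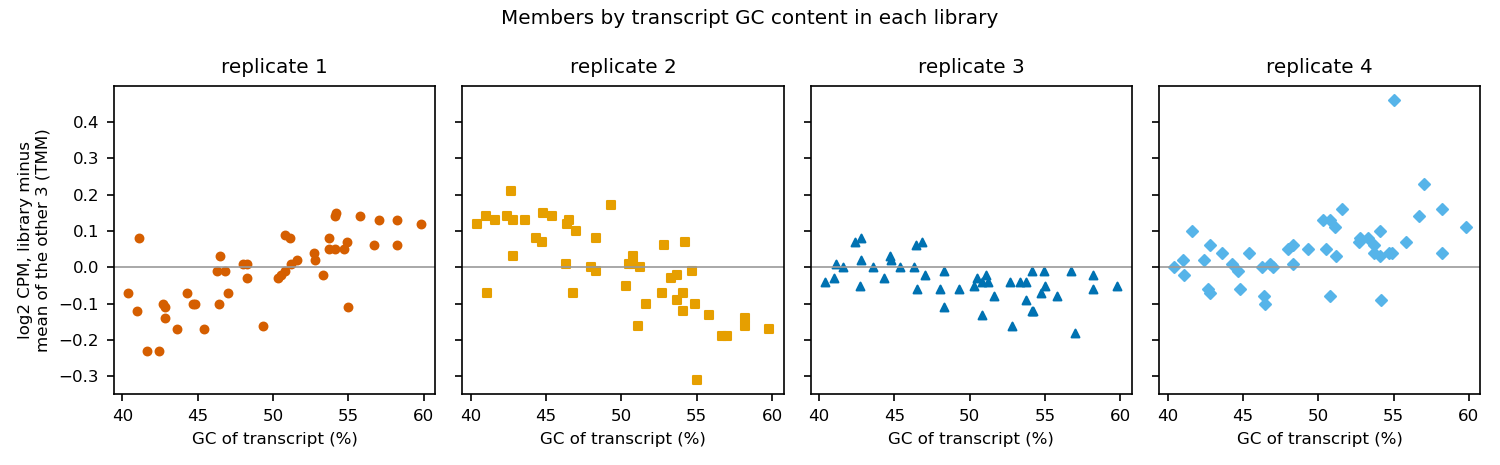
Log2 CPM of each of the 46 genes in a library minus the mean of the other 3 (y axis, TMM scaling) against the GC content of its longest protein-coding transcript in percent (x axis), 1 panel per library. Points climb with GC in replicates 1 and 4 and descend in replicates 2 and 3, with Pearson's r of 0.74, 0.47, -0.77 and -0.52 in that order.

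The rest of the pathway was expressed as well, at a lower median than the 46 genes. Of 98 further ribosome biogenesis genes listed by role, 97 were matched. All 97 reached a mean of 10 TPM, against 73.8% of expressed protein-coding genes. Their median was 121 ± 5.18 TPM, and 56 of them (57.7%) reached 100 TPM, against 19.3% of expressed protein-coding genes. None passed edgeR's adjusted p of 0.05 for spread between libraries, where 58 of all 12396 genes (0.468%) did. Before adjustment 2 of the 97 and 661 of the 12396 were under 0.05 in edgeR. In that edgeR fit the 2 were Mdn1, the giant AAA ATPase of the large subunit, with 0.0103 (adjusted p = 0.665), and Imp3, of the U3 particle, with 0.0412 (adjusted p = 0.912).

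The highest and lowest of each role group by exon length follow. Among 3 further nucleolar proteins Nifk had 262 ± 25.5 TPM and Surf6 70.6 ± 2.36 TPM. Among 4 box C/D genes the assembly ATPase Ruvbl2 had 339 ± 22.4 TPM and the assembly factor Nufip1 46.6 ± 4.44 TPM. The H/ACA assembly factors Naf1 and Shq1 had 55.4 ± 3.27 and 21.2 ± 0.356 TPM, both below every core H/ACA protein. Among 37 small-subunit genes Noc4l had 401 ± 16.5 TPM and Dimt1, the dimethyladenosine transferase of 18S rRNA, 32.1 ± 1.73 TPM. Among 38 large-subunit genes Noc2l had 588 ± 23.6 TPM and Ddx55 28.8 ± 1.75 TPM. Among 13 polymerase I genes Polr2f, a small subunit shared by the nuclear RNA polymerases, had 476 ± 30.5 TPM and Ttf1, the transcription terminator, 19.3 ± 0.930 TPM. With the longest transcript 4 of these places changed hands, by genes chosen after their values were seen. Emg1 (546 TPM) then stood above Noc4l (365 TPM), Eif6 (540.2 TPM) above Noc2l (436 TPM) and Polr2e (395 TPM) above Polr2f (212 TPM), while Nmd3 (23.8 TPM) stood below Ddx55 (39.6 TPM). For Polr2f the transcript (885 bp) is longer than the exons that were counted (543 bp), so its level of 212 TPM may be too low.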

How the data were processed

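The authors used featureCounts 1.4.6-p4 to count fragments, per the file headers, over exons grouped by gene of GENCODE mouse release 13, with strand setting 2 and both ends mapped; fragments on several genes or places were not asked for. The deposited values are raw counts on mm10, and the deposited tables also give the exon length of each gene. No aligner is named: it is not given in the sources used. TPM was computed from counts and exon lengths. Names and transcript lengths came from GENCODE release 21 (50376 of 50600 IDs matched, 1 listed gene not among them), a later release than that of the counts. IDs without a name held under 0.01% of fragments.

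Variability was tested in R 4.3.3 with edgeR 4.0.16 (genes kept by filterByExpr, TMM scaling, a quasi-likelihood fit with an intercept alone and a robust prior, upper tail of F, Benjamini-Hochberg over all genes), after the script was tested on simulated data, with DESeq2 1.42.0 as an alternative. Pairs were tested by exact sign-flip permutation with 16 patterns and a pseudocount of 1. Copies were found with BLAST 2.17.0. Also tried were other lengths, scalings, filters, pseudocounts and each library left out. Intervals are exact binomial at 95% and, like the limit for a count of 0, cover counting error only. The members, lists and pairs were chosen with earlier results of these data known. All 46 genes are named, with every library for the highest and lowest of each role group, both members of each pair and any gene called variable, and the highest and lowest further gene of each role. Gnl3, Wdr43 and the other snoRNA hosts, the printed sequences and genes singled out for a shift with GC were chosen after their values were seen.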

Additional observations from a re-analysis of the deposited data

Results flagged for a closer look

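Of 67 sets of 4 values tested with Dixon's ratio, 4 had a library whose gap to the nearest other exceeded the 95% critical value, all in replicate 1. Chance flags about 1 in 20 such sets. Ncl had 1016 TPM there and 1174 to 1199 TPM in the other 3 libraries, Nop56 409 TPM and 448 to 454 TPM, and Polr1b 127 TPM and 137 to 138 TPM. Gm42418, the feature related to 18S rRNA, had 35490.5 TPM in replicate 1 and 1324 to 3197 TPM in the others. When TPM was scaled over protein-coding genes alone, Nop56 had 464, 469, 466 and 470.4 TPM and Polr1b 144, 143, 141 and 143 TPM, with ratios of 0.341 and 0.557, below the critical value. Ncl kept its gap, with 1152, 1229, 1240.3 and 1232 TPM and a ratio of 0.873.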

How the results depend on the processing

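The median TPM of the 46 genes, 225, was 204 with the longest protein-coding transcript, 204 with the APPRIS transcript (an alternative chosen after seeing the data) and 239 when TPM was scaled over protein-coding genes. Leaving out each library in turn gave 222 to 228 for the median and 39 in each case for the number of genes at 100 TPM or more. It gave 97 for the further genes at 10 TPM or more and 1.76% to 1.79% for the share of fragments. None of the 46 genes was then called variable, while edgeR called 37 to 69 genes in all. The 11 pairs had 1 sign in all 4 libraries, so leaving 1 out could not change that count. With no filter edgeR called 110 of 21459 genes, against 58 in the reported fit, and with a prior that is not robust 36. None of the 46 was called in these fits. Single levels moved by more than their SD for 40 of the 46 genes under each transcript length and for 26 under protein-coding scaling. Each of these moves includes a rescaling of all genes. Leaving out 1 of 4 libraries can never move a mean by more than its SD, so it was no check on single levels. Counting CACGCG as well as CACGTG gave 22 promoter windows against 9, and asking for a fragment in every library left 10 snoRNA genes of 29. No paired analysis was possible because there is 1 group, so replicate numbers pair no samples across groups; the 11 differences between genes were taken within each library. With 4 libraries the smallest sign-flip p is 0.13, and Wdr74 has the fewest fragments, so its spread is the least certain.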
